A study of Homo sapiens with 8 samples.

Results

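Replication-dependent histone genes of the short arm of human chromosome 6, in band 6p22, were examined for open chromatin in the ovarian cancer line A2780 and in drug-resistant derivatives of it. The members were all protein-coding RefSeq genes of hg38 that lie on chromosome 6 between 25.9 and 28 Mb and have a symbol starting with H1-, H2AC, H2BC, H3C or H4C. This gave 53 of the 72 protein-coding genes of the window. A peak was assigned to a gene where it overlapped the gene's span extended by 1 kb on both sides, which gave 86 of the 159451 peaks of the deposited matrix, over 51 of the 53 genes. All 86 passed the filter on low values, as did 158698 peaks in all.

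The assay was ATAC-seq, which uses the transposase Tn5 to cut and tag accessible DNA. There were 4 groups of 2 libraries each. The control cells were A2780 with genotype WT and no treatment given. The 3 other groups carried the same cell line and genotype labels and were resistant to cisplatin, to paclitaxel, or to both drugs (dual-resistant). Cisplatin is a platinum compound that crosslinks DNA, and paclitaxel stabilises microtubules. The labels do not say whether drug was present at collection, whether a line was 1 clone, or whether both libraries of a line stem from separate cultures. All p-values thus reflect the spread between libraries alone, which may be technical. In the main fit, that spread came mostly from all peaks of like level (98.5 prior degrees of freedom). The peak's own libraries added little to it (4 residual degrees of freedom), so an SE is not the spread of the values printed beside it.

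Replication-dependent histone genes supply the core histones H2A, H2B, H3 and H4 and the linker histone H1 during S phase, when new DNA has to be packed into nucleosomes. They are small, mostly have no introns, occur in many near-identical copies, and end in a stem-loop in place of a poly(A) tail. Their transcription is driven at nuclear histone locus bodies by NPAT, which is phosphorylated by cyclin E and CDK2. Many H2A and H2B genes are paired head to head and share a promoter with CCAAT boxes, bound by NF-Y, and the octamer, bound by POU2F1 (OCT1).

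Promoter sequences were matched for 48 of the 53 genes in the RefSeq promoter table for GRCh38.p14 (52 starts). H4C1, H4C3, H2AC12, H3C11 and H3C12 had no entry. In the 250 bases before the start, TATAAA, read on the gene's own strand, was present at 28 of 52 member starts (53.9%), against 6.18% of 22199 protein-coding starts in the table. The CCAAT box, read on both strands as CCAAT or ATTGG, was present at 45 of 52 (86.5%), against 32.7%. It was found at every H1, H2A, H2B and H3 start and at 3 of 10 H4 starts. The octamer, as ATTTGCAT or ATGCAAAT, was present at 21 of 52 (40.4%), against 1.59%, of which 8 were among 10 H2A starts and 12 among 16 H2B starts. The E2F letters TTTCGCGC and TTTGGCGC, with their reverse complements GCGCGAAA and GCGCCAAA, were present at 12 of 52 (23.1%), against 1.27%. A match is a description of letters, not of a bound site, and paired genes share much of the same sequence.

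The sequences below were chosen because the results turn on them. H2BC11 stands for the shared promoters: its 247 bases at chr6:27132796-27133042 fill the whole distance to the start of H2AC11, under the strongest peak of the set. H4C8, at chr6:26285535-26285784, lies under the strongest H4 peak and holds none of these letters. H2BC3 (chr6:26043714-26043963), H3C3 (chr6:26045134-26045383), H4C6 (chr6:26240143-26240392) and H4C13 (chr6:27873535-27873784) have peaks of at most 2.73 CPM in control libraries that were higher in cisplatin-resistant cells. H1-1 (chr6:26017788-26018037) and H1-6 (chr6:26108136-26108385) are the members with no peak. Each is written 5′ to 3′ along its own gene (plus strand for H3C3 and H4C6, minus strand for the others), up to the base before the start, with matches to the letters above in capitals.
H2BC11: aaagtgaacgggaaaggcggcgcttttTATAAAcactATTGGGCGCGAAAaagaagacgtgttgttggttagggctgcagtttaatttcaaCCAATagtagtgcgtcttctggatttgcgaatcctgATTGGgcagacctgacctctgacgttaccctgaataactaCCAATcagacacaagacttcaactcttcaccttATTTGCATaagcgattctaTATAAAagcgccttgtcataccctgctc
H4C8: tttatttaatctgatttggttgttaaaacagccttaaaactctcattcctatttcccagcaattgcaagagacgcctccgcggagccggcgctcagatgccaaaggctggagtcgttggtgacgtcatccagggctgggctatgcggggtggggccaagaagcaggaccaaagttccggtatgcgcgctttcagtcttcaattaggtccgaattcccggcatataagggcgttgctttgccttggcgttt
H2BC3: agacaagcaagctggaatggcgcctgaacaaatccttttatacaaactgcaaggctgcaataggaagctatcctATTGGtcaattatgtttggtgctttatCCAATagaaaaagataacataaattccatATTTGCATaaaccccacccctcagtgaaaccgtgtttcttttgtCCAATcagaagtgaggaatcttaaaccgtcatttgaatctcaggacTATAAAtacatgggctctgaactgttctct
H3C3: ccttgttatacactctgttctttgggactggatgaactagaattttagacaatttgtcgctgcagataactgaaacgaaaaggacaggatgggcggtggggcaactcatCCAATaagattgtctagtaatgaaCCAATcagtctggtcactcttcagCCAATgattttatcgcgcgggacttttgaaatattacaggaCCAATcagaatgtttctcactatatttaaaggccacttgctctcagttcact
H4C6: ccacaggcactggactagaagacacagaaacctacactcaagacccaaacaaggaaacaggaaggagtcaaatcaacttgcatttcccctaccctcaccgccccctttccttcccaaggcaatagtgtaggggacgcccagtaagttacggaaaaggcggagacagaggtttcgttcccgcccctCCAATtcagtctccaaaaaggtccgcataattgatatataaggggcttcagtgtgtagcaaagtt
H4C13: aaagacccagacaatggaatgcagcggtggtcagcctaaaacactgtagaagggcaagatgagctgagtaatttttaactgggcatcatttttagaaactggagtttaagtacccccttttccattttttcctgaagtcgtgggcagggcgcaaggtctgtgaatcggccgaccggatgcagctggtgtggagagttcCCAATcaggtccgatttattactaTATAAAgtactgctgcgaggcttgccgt
H1-1: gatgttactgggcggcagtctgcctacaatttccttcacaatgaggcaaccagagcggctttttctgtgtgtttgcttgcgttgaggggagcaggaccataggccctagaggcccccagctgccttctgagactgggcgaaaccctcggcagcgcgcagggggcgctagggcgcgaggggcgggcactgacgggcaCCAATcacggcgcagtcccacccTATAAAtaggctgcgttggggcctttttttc
H1-6: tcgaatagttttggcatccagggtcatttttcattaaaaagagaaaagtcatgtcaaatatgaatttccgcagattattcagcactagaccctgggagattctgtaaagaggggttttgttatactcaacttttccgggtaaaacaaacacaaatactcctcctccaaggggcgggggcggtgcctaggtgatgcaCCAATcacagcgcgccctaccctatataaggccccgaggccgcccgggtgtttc

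The match counts of these stretches did not order the levels: 8 matches stood in the H2BC11 sequence and 0 in that of H4C8, both strongly open, while H2BC3 with 5 matches had at most 1.54 CPM in every library of 3 of the 4 groups. H1-1 and H1-6 each hold a CCAAT box. H1-6 is a linker histone of testis. H2AC1 and H2BC1, testis histone genes outside the window, had no peak either.

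Levels are given in CPM, reads of a peak scaled to a common total of reads in peaks, and all peaks are 1001 bp wide, so width does not set levels apart. How reads that map to several near-identical histone copies were handled is not known. Its part in the ranking of levels between genes was not tested. Libraries held 7693492 to 9304798 reads in peaks, so that 1 read was worth 0.107 to 0.130 CPM. PCR reads are not independent molecules, and the floors given here cover counting error only. Less signal per cell and fewer cells with an open site cannot be told apart in bulk libraries. Of the lineage markers examined, all 10 ovarian and epithelial genes had a tested peak, with summed levels of 71.7, 108, 45.2 and 59.4 CPM in control, cisplatin-, paclitaxel- and dual-resistant cells. The 5 haematopoietic markers summed to 41.7, 39.2, 46.3 and 41.1 CPM, the 3 endothelial markers to 8.15, 34.8, 6.88 and 13.99 CPM, and the 4 fibroblast markers to 39.5, 47.4, 54.0 and 55.6 CPM. PAX8, a transcription factor of the Müllerian lineage, had a peak of 33.7 CPM in cisplatin-resistant cells and of 1.17 to 1.49 CPM in the other groups. The 10 genes did not move together: 4 were higher and 2 lower than control with cisplatin resistance (limma, adjusted p under 0.05). Their median log2 difference was −0.11, and 18.3% of all tested peaks were higher and 14.9% lower. No marker was at 0 in both libraries of any group, and the part of other cell types in the results was not tested.

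The 86 histone gene peaks were among the stronger peaks of these cells, with a median of 23.4 CPM over the 8 libraries against 2.76 CPM for all tested peaks. They took 0.203% and 0.193% of reads in peaks in the 2 control libraries. The shares were 0.247% and 0.241% with cisplatin resistance, 0.336% and 0.341% with paclitaxel resistance and 0.190% and 0.188% with both. Both single-resistant groups thus lay above control in every library, and the dual-resistant libraries lay below all others. Each gene was represented by the strongest peak that it overlaps, and because neighbours share peaks, the 51 genes had 34 distinct ones. Of the peaks in the set, 53 carry the name of a peak from a paclitaxel-resistant library (61.6%, against 23.0% of all peaks), 31 from a cisplatin-resistant one (36.0%, against 34.3%), 2 from a dual-resistant one (2.33%, against 39.5%) and none from control (3.18% of all peaks). No source used here gives how the authors merged peaks, and the part of that choice in the results was not tested.

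**Figure D1:**
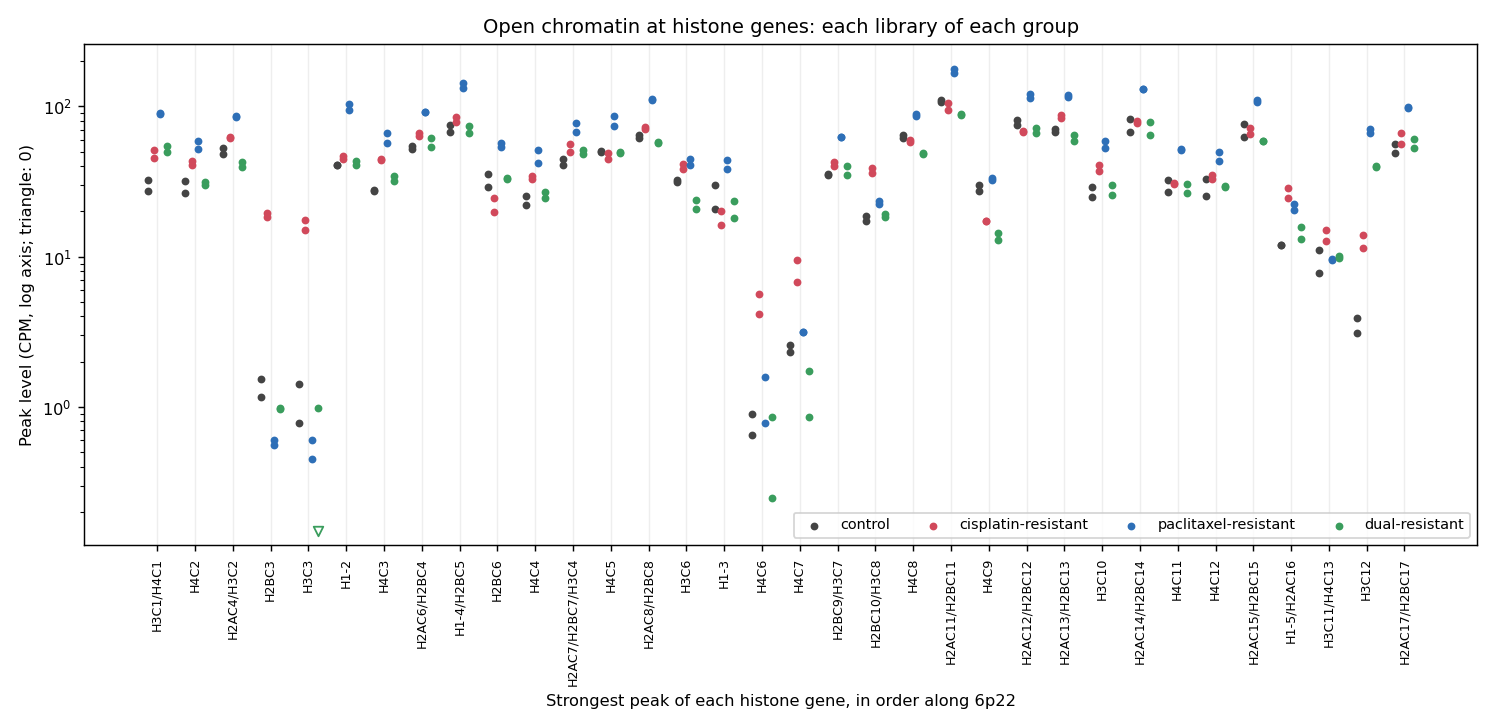
Level of the strongest peak of each 6p22 histone gene in CPM (log axis) in each of the 8 libraries, coloured by group and ordered along the chromosome; genes that share a peak share a label, and an open triangle marks a value of 0. Both paclitaxel-resistant libraries are the highest at 26 of the 34 peaks, and at 26 of the 28 with a mean above 20 CPM over all 8 libraries. The share among all tested peaks was not counted. H2BC3, H3C3, H4C6 and H4C7 are highest in cisplatin-resistant libraries, and H3C12 rises from 3.49 CPM in control to 68.5 CPM in paclitaxel-resistant cells.

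H2BC11 and H2AC11, an H2B and H2A pair, shared the strongest peak (chr6:27132330-27133330). It had 109 and 108 CPM in control, 106 and 94.4 CPM in cisplatin-resistant, 166 and 178 CPM in paclitaxel-resistant and 87.0 and 88.3 CPM in dual-resistant libraries. Paclitaxel-resistant libraries were thus the highest, and dual-resistant ones the lowest without overlap. The 8 head-to-head H2A and H2B pairs with both genes in the promoter table have 193 to 247 bases between their starts. In all, 8 peaks held both starts of a pair, with levels of 40.6 to 178 CPM over the libraries. H2AC12 had no entry, so H2BC12 and H2AC12, which share a peak, were not counted as a pair. Low members included the H4 gene H4C6, the H3 gene H3C3 and the H2B gene H2BC3, with at most 1.54 CPM in any control library.

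In cisplatin-resistant cells, histone gene peaks were more often higher than lower: 46 of 86 were called higher than control and 6 lower (limma, adjusted p under 0.05), where 18.3% of all tested peaks were called higher and 14.9% lower. The median log2 difference over the members was 0.32, against −0.09 for all tested peaks and −0.19 for the 11168 peaks that hold a protein-coding start. By gene, 9 of 10 H3 genes were higher, 7 of 12 H4 genes, 5 of 11 H2A genes, 5 of 14 H2B genes and 1 of 4 H1 genes, with 1 H1, 1 H2B and 1 H4 gene lower. A peak shared by genes of several families counts in each, so the families are not independent and were not tested against each other. Over the 34 distinct peaks of the genes, 18 were higher and 3 lower. By edgeR and DESeq2, 9 H2B genes and 2 H1 genes were higher, and DESeq2 called 2 peaks lower in all. Both libraries lay above both control libraries at 54 peaks (62.8%) and below them at 14 (16.3%), where 29.8% and 34.5% of all tested peaks did. The calls lay mainly in the outer gene blocks, with 31 of 55 higher in the first block along the chromosome (H1-1 to H4C8) and 13 of 21 in the third (H2BC13 to H2BC17), against 2 of 10 in the second (H2BC11 to H2AC12), where 4 were lower.

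The largest differences were at loci that are all but closed in control cells. H2BC3, an H2B gene, had 1.17 and 1.54 CPM in control, 19.6 and 18.2 CPM in cisplatin-resistant, 0.607 and 0.562 CPM in paclitaxel-resistant and 0.989 and 0.967 CPM in dual-resistant libraries at the peak over its start (chr6:26043342-26044342). Only the cisplatin-resistant libraries stood apart upward, with a log2 difference of 3.39 ± 0.39 (SE, adjusted p = 2.8e-12), and the paclitaxel-resistant ones lay below control without passing the test (−0.77 ± 0.39, adjusted p = 0.18). The scale of all log2 differences is log2(CPM + 0.5), which understates changes of low peaks.

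H3C3, the H3 gene next to it, had 0.780 and 1.42 CPM in control, 15.1 and 17.5 CPM in cisplatin-resistant, 0.607 and 0.450 CPM in paclitaxel-resistant and 0.989 and 0 CPM in dual-resistant libraries at the peak over its start (chr6:26044934-26045934). A count of 0 in that library allows up to 0.322 CPM (3 reads). Cisplatin-resistant libraries again were the only high ones (3.42 ± 0.44, adjusted p = 2.6e-10). The second H3C3 peak, at chr6:26046710-26047710, moved in the same way (3.48 ± 0.45, adjusted p = 3.2e-10), as did the second H2BC3 peak (2.26 ± 0.44, adjusted p = 1.5e-05).

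H4C6, an H4 gene, had 0.650 and 0.901 CPM in control, 4.16 and 5.61 CPM in cisplatin-resistant, 1.58 and 0.787 CPM in paclitaxel-resistant and 0.247 and 0.860 CPM in dual-resistant libraries. Its cisplatin-resistant libraries did not overlap with any other (2.07 ± 0.46, adjusted p = 0.00013). H4C7, a neighbouring H4 gene whose peak lies just before its start, had 2.60 and 2.32 CPM in control, 9.45 and 6.78 CPM in cisplatin-resistant, 3.16 and 3.15 CPM in paclitaxel-resistant and 1.73 and 0.860 CPM in dual-resistant libraries. That difference was 1.53 ± 0.35 (adjusted p = 0.00021), and the other resistant groups did not pass the test.

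The peak over the start of H4C13, which also lies within 1 kb of H3C11 (chr6:27872906-27873906), was singled out after its values were seen, since it is not the strongest peak of either gene. It had 2.73 and 1.42 CPM in control, 16.4 and 16.7 CPM in cisplatin-resistant, 0.971 and 1.12 CPM in paclitaxel-resistant and 1.85 and 0.967 CPM in dual-resistant libraries. The cisplatin-resistant libraries were the only high ones (2.78 ± 0.36, adjusted p = 3.6e-10).

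**Figure D2:**
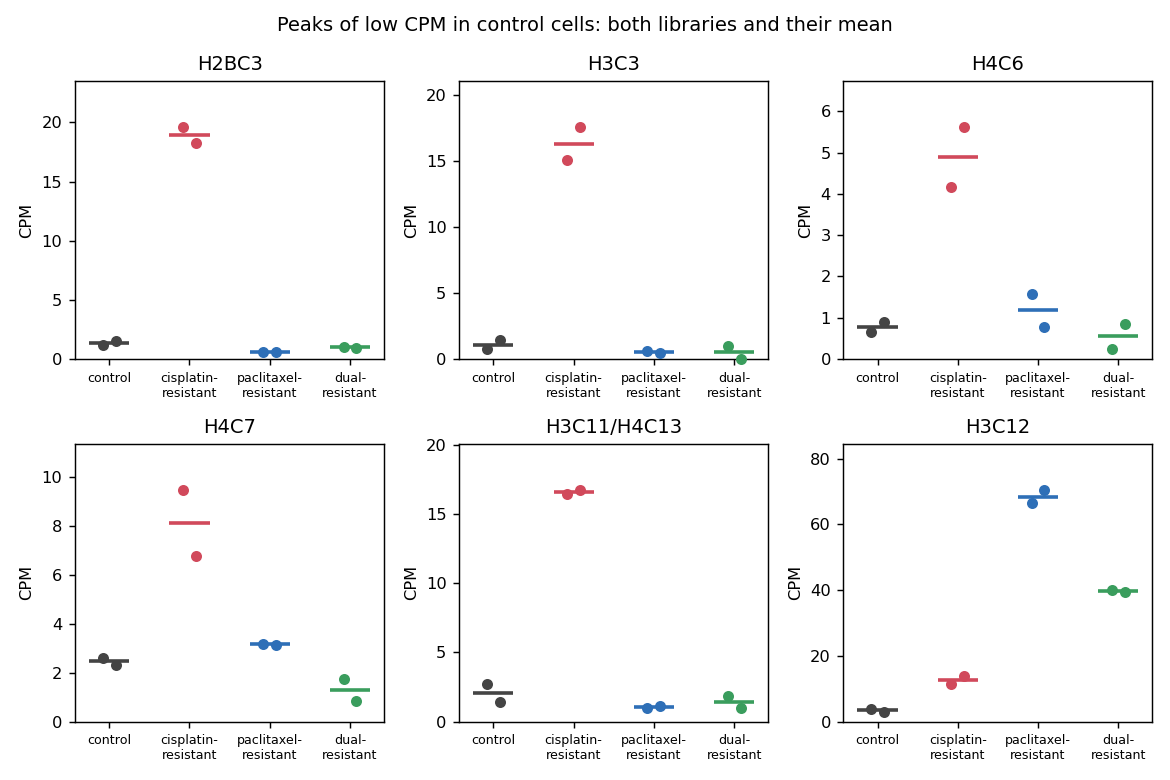
Level in CPM (linear axes from 0, scaled per panel) of 6 peaks that are low in control cells, with both libraries of each group as points and their mean as a line. Of the panels, 5 are high in cisplatin-resistant libraries alone, whereas the H3C12 peak is highest in paclitaxel-resistant cells at 68.5 CPM and also high in dual-resistant cells at 39.7 CPM.

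The genes lower in cisplatin-resistant cells at their strongest peak numbered 3. H4C9, an H4 gene (chr6:27139208-27140208), had 30.2 and 27.4 CPM in control, 17.3 and 17.2 CPM in cisplatin-resistant, 32.5 and 33.3 CPM in paclitaxel-resistant and 12.98 and 14.3 CPM in dual-resistant libraries. Cisplatin- and dual-resistant libraries lay below control without overlap (−0.72 ± 0.15, adjusted p = 3.2e-05, and −1.05 ± 0.15, adjusted p = 6.6e-09). H2BC6, an H2B gene, had 35.2 and 29.1 CPM in control and 24.5 and 19.8 CPM in cisplatin-resistant libraries (−0.53 ± 0.12, adjusted p = 0.00032), but 57.2 and 54.1 CPM in paclitaxel-resistant libraries and 33.5 and 32.8 CPM in dual-resistant ones. H1-3, a linker histone gene, had 29.9 and 20.7 CPM in control and 16.3 and 20.2 CPM in cisplatin-resistant libraries (−0.44 ± 0.15, adjusted p = 0.012), groups that lay close to each other. The H1-3 call was lost without control library 1 (−0.18), without cisplatin-resistant library 1 (−0.29), and under median-ratio (−0.33) or quantile scaling (−0.33).

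The cisplatin difference was set against the neighbourhood. The 256 window peaks away from histone genes had a median of −0.22, with 26 higher and 90 lower. Within the gene blocks, the 39 peaks of the first that touch no member had a median of 0.20, the 7 of the second one of 0.07 and the 7 of the third one of 0.46. After the window's median was subtracted, 57 member peaks were called higher and 2 lower. Both strong and weak members took part. Of the 46 peaks of at least 20 CPM, 22 were higher (median 0.26), against 1021 of all 10066 tested peaks at that level. Of the 40 below it, 24 were higher (median 0.76), against 28072 of all 148632 (median −0.07).

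In paclitaxel-resistant cells more histone gene peaks were called higher than in cisplatin-resistant cells, mainly among the stronger ones. Of the 86 peaks, 58 were called higher and 2 lower, where 7.26% of all tested peaks were higher and 9.17% lower, and the median log2 difference was 0.69 against −0.14 for all tested peaks. The lean of all tested peaks depended on the scaling, with 11525 higher and 14557 lower here but 16305 and 10259 under median-ratio scaling. All 4 H1 genes with a peak, all 11 H2A genes, 12 of 14 H2B genes, 7 of 10 H3 genes and 8 of 12 H4 genes were higher at their strongest peak. None of the 51 genes was lower by limma, edgeR or DESeq2, and 1 was at an unadjusted p under 0.05. Over their 34 distinct peaks, some of which count in several families, 27 were higher. Among the 46 peaks of at least 20 CPM, 44 were higher (median 0.78), against 2046 of all 10066 tested peaks at that level (median 0.08). Of the 40 peaks below 20 CPM, 14 were higher and 2 lower (median 0.38). At that level 9479 of all 148632 tested peaks were higher and 13720 lower. The 8 peaks at head-to-head pairs were all higher, by 0.65 to 0.90, whereas 3 of these 8 were higher in cisplatin-resistant cells (5 by edgeR and DESeq2) and none in dual-resistant cells by limma, edgeR or DESeq2 (1 at an unadjusted p under 0.05). The peak shared by H2BC12 and H2AC12, not counted among these pairs, was higher with paclitaxel resistance by 0.59.

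H3C12, an H3 gene at chr6:27890315-27890826, had the largest difference of the set. Its peak (chr6:27890349-27891349) had 3.90 and 3.09 CPM in control, 11.4 and 14.03 CPM in cisplatin-resistant, 66.5 and 70.5 CPM in paclitaxel-resistant and 39.9 and 39.5 CPM in dual-resistant libraries. The 4 groups did not overlap, and each resistant group lay above control, by 1.72 ± 0.16 (adjusted p = 9.4e-17), 4.12 ± 0.16 (adjusted p = 1.3e-43) and 3.34 ± 0.16 (adjusted p = 8.8e-36). The adjoining peak at chr6:27891738-27892738, shared with the H2AC17 and H2BC17 pair, was also higher in all 3, by 0.75 ± 0.14, 1.64 ± 0.14 and 0.63 ± 0.14 (adjusted p = 3.6e-06, 4.9e-19 and 0.00028).

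H3C1 and H4C1, an H3 and an H4 gene, shared the peak with the next largest difference among the genes' strongest peaks (chr6:26021183-26022183). It had 32.4 and 27.3 CPM in control, 51.3 and 45.1 CPM in cisplatin-resistant, 90.0 and 89.5 CPM in paclitaxel-resistant and 54.5 and 49.8 CPM in dual-resistant libraries. All resistant libraries lay above control, by 0.69 ± 0.10 (adjusted p = 4.4e-08), 1.58 ± 0.10 (adjusted p = 2.2e-25) and 0.80 ± 0.10 (adjusted p = 6.9e-10). H4C3, another H4 gene, had 27.8 and 27.2 CPM in control, 44.1 and 44.4 CPM in cisplatin-resistant, 56.9 and 66.9 CPM in paclitaxel-resistant and 31.7 and 34.2 CPM in dual-resistant libraries. Its paclitaxel difference was 1.15 ± 0.11 (adjusted p = 4.0e-15), and the dual-resistant libraries, though above control, did not pass the test (0.25 ± 0.11, adjusted p = 0.13).

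Linker histones bind DNA at the entry to the nucleosome. Their genes H1-2 to H1-5 were all higher with paclitaxel resistance at their strongest peaks, none of which holds the gene's own start. H1-2 had 40.6 and 40.9 CPM in control, 47.0 and 44.3 CPM in cisplatin-resistant, 103 and 94.5 CPM in paclitaxel-resistant and 40.6 and 43.2 CPM in dual-resistant libraries at its stronger peak, which lies next to the 3′ end of the gene. Paclitaxel-resistant libraries stood far above the rest (1.27 ± 0.10, adjusted p = 3.1e-20), and so they did at the H1-2 peak over the start (0.60 ± 0.13, adjusted p = 0.00025). H1-4, at a peak shared with H2BC5 that holds the start of H2BC5, had 75.6 and 67.7 CPM in control, 84.4 and 78.5 CPM in cisplatin-resistant, 133 and 144 CPM in paclitaxel-resistant and 73.8 and 66.0 CPM in dual-resistant libraries (0.95 ± 0.08 for paclitaxel, adjusted p = 1.2e-17). The peak over the start of H1-4 was also higher with paclitaxel (0.73 ± 0.13, adjusted p = 2.9e-06). H1-3 had 38.1 and 44.2 CPM in paclitaxel-resistant and 23.5 and 17.9 CPM in dual-resistant libraries, and only the former passed the test (0.71 ± 0.15, adjusted p = 8.4e-05). That call was lost without control library 2 (0.45).

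H1-5 was represented by a peak shared with H2AC16, an H2A gene (chr6:27865696-27866696). It had 11.96 and 11.97 CPM in control, 28.8 and 24.7 CPM in cisplatin-resistant, 20.5 and 22.4 CPM in paclitaxel-resistant and 15.8 and 13.1 CPM in dual-resistant libraries. Here the cisplatin-resistant libraries were the highest (1.12 ± 0.16, adjusted p = 8.4e-09), ahead of the paclitaxel-resistant ones (0.81 ± 0.16, adjusted p = 3.5e-05). The peak over the start of H1-5 was higher in cisplatin-resistant cells (0.76 ± 0.17, adjusted p = 0.00021) and not called with paclitaxel (0.22 ± 0.17, adjusted p = 0.44).

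Other members high in their family were H3C2 and H4C8. H3C2, an H3 gene whose peak also lies near H2AC4, had 48.5 and 52.8 CPM in control, 62.5 and 61.5 CPM in cisplatin-resistant, 86.7 and 85.3 CPM in paclitaxel-resistant and 39.4 and 42.6 CPM in dual-resistant libraries. The 4 groups did not overlap, in the order dual-resistant, control, cisplatin-resistant, paclitaxel-resistant, with log2 differences of −0.30 ± 0.10 (adjusted p = 0.023), 0.29 ± 0.10 (adjusted p = 0.013) and 0.76 ± 0.10 (adjusted p = 2.2e-10). H4C8 had 61.4 and 64.7 CPM in control, 59.4 and 57.6 CPM in cisplatin-resistant, 86.3 and 89.3 CPM in paclitaxel-resistant and 48.3 and 49.2 CPM in dual-resistant libraries. Its paclitaxel difference was 0.48 ± 0.09 (adjusted p = 3.0e-05) and its dual difference −0.37 ± 0.09 (adjusted p = 0.0024).

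The only 2 peaks lower in paclitaxel-resistant cells were assigned to H3C6, an H3 gene with a longer span than most members. At chr6:26226050-26227050, beyond the start, levels were 7.02 and 7.98 CPM in control, 6.42 and 5.50 CPM in cisplatin-resistant, 2.43 and 1.57 CPM in paclitaxel-resistant and 1.36 and 1.07 CPM in dual-resistant libraries. Paclitaxel- and dual-resistant libraries were both low (−1.70 ± 0.33, adjusted p = 3.0e-05, and −2.22 ± 0.33, adjusted p = 6.4e-08). The next peak, at chr6:26227720-26228720, lies past the gene's end, within the 1 kb extension. It was lower in the same groups, by −1.24 ± 0.32 (adjusted p = 0.0021) and −0.98 ± 0.32 (adjusted p = 0.023). At the start of H3C6, by contrast, levels were 32.2 and 31.5 CPM in control, 41.1 and 38.5 CPM in cisplatin-resistant, 40.9 and 44.5 CPM in paclitaxel-resistant and 20.6 and 23.9 CPM in dual-resistant libraries. Both single-resistant groups were higher there (0.31 ± 0.12, adjusted p = 0.038, and 0.41 ± 0.12, adjusted p = 0.0094) and the dual-resistant group lower (−0.51 ± 0.12, adjusted p = 0.0011).

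**Figure D3:**
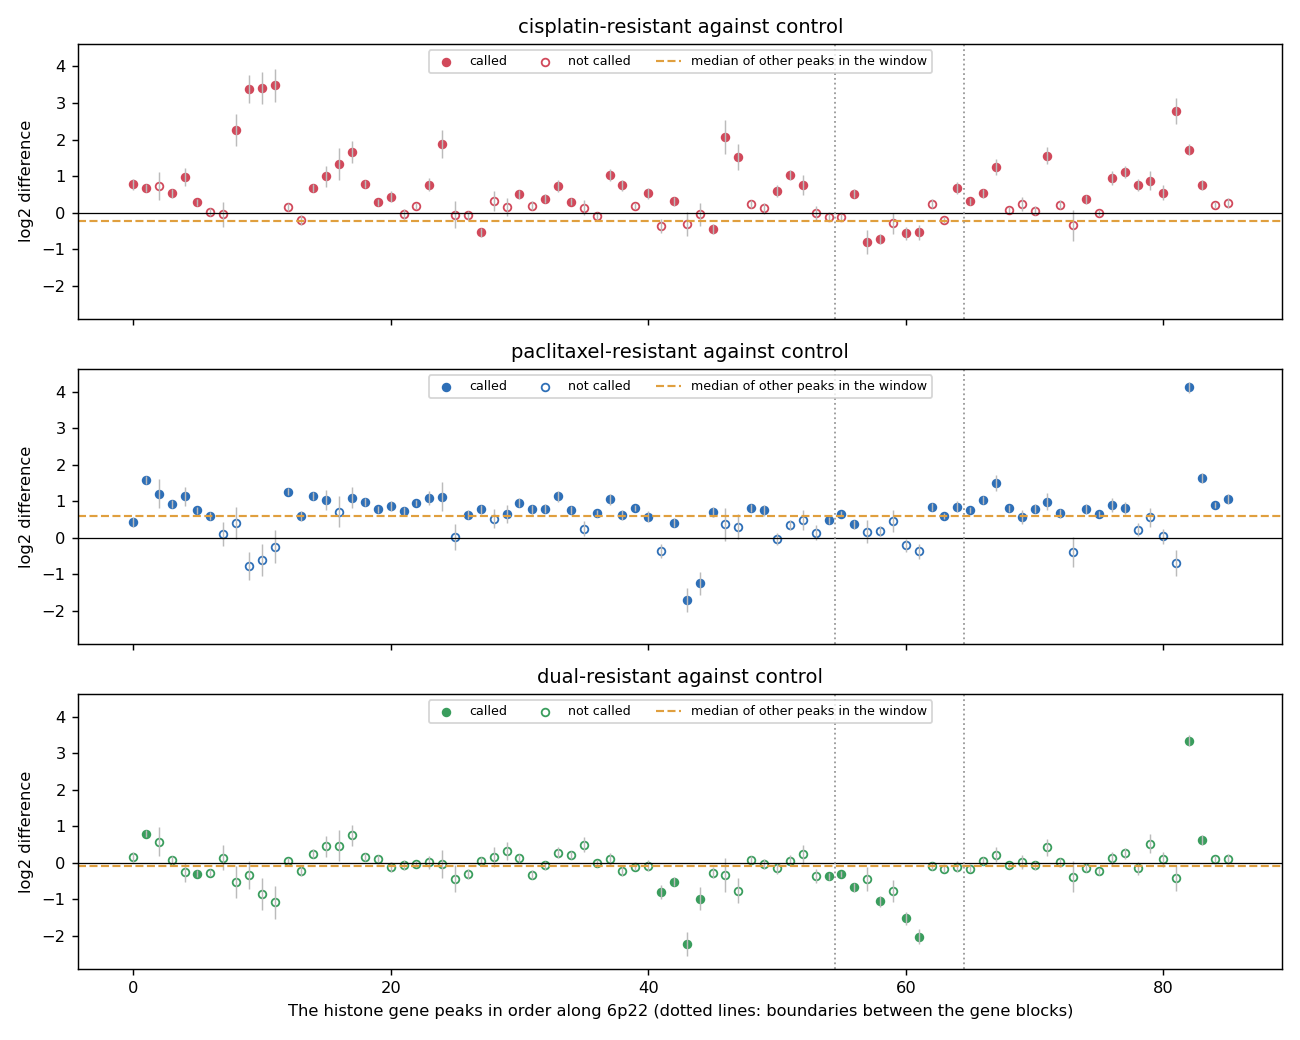
Log2 difference from control (limma, log2(CPM + 0.5) scale) with its standard error for the 86 histone gene peaks in order along 6p22, filled where called at an adjusted p under 0.05; the dashed line is the median of the 256 other peaks of the window and dotted lines divide the gene blocks. Cisplatin differences spread up to 3.48 above a window median of −0.22, paclitaxel differences sit around a window median of 0.58, and most dual-resistant differences lie near 0.

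The paclitaxel rise extended beyond the histone genes. The 256 other peaks of the window had a median of 0.58, with 117 higher and 14 lower, and the 7207 peaks of chromosome 6 outside the window one of 0.44. In bins of 10 Mb along chromosome 6 the median paclitaxel difference ran from 0.22 to 0.75 and was above 0 in all. With the window's median subtracted, 16 member peaks were called higher and 10 lower, and the members' median was 0.11. Of the 60 called member peaks, 6 then had the opposite sign. The differences at H4C8, H3C6 and H4C9 became −0.11, −0.17 and −0.39. Without that subtraction, peaks of no member inside the gene blocks had medians of 0.17 in the first, −0.31 in the second and 0.24 in the third. Among other protein-coding genes of the window, 11 of 13 with a peak were higher, including HMGN4, a nucleosome-binding protein (57.7 CPM in control and 103 CPM in paclitaxel-resistant cells, 0.84, adjusted p = 1.2e-12), and the zinc finger gene ZNF322 (52.3 and 82.1 CPM, 0.65, adjusted p = 1.2e-07). The number of copies of chromosome 6 in each line was not measured here, and its part in these values was not tested.

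In dual-resistant cells few histone gene peaks passed the test. Of the 86 peaks, 3 were called higher and 11 lower, where 8.11% of all tested peaks were higher and 5.39% lower, and the median log2 difference was −0.06 against 0.08 for all tested peaks. The split was 8 higher and 9 lower under quantile scaling and 7 and 10 with the window's median subtracted, and the median became 0.02 and 0.03. The lower count was 18 by edgeR and 17 under median-ratio scaling. All tested peaks, 12864 higher and 8561 lower here, were 10720 and 10749 under that scaling. The comparison with all tested peaks depended on peak level. Of the 46 member peaks of at least 20 CPM, 6 were lower (median −0.06), against 2070 of all 10066 tested peaks (median −0.15). Below 20 CPM, 5 of 40 member peaks were lower (median −0.13), against 6491 of all 148632 (median 0.11). The share of members called lower was thus smaller than in all tested peaks at the stronger level and larger below it. The 3 higher peaks were those of H3C12, both of them, and of H3C1 and H4C1, with the values given above. By gene, none of the 4 H1 genes was called by limma, edgeR or DESeq2 or had an unadjusted p under 0.05, 2 of 11 H2A genes were lower (5 by edgeR), 1 of 14 H2B genes was lower (4 by edgeR), 2 of 10 H3 genes were higher and 2 lower, and 1 of 12 H4 genes was higher and 2 lower. Over the 34 distinct peaks of the genes, some of which count in several families, 2 were higher and 5 lower. At H2BC11 and H2AC11 the fall was −0.31 ± 0.07 (adjusted p = 0.0013), and it did not pass the test under quantile scaling (−0.12). That of H3C2 was lost under quantile scaling (−0.16), with the window's median subtracted (−0.21), and without control library 2 (−0.24) or dual-resistant library 1 (−0.25). That of H4C8 was lost under quantile scaling (−0.21) and without control library 2 (−0.33).

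Of the 11 lower peaks, 5 lay in the second block, and 3 of these over the span of H2BC12, an H2B gene with a long transcript that reaches across H4C9. The peak at chr6:27143671-27144671 had 17.7 and 17.2 CPM in control, 12.5 and 11.3 CPM in cisplatin-resistant, 13.5 and 13.4 CPM in paclitaxel-resistant and 3.71 and 4.19 CPM in dual-resistant libraries. The dual-resistant libraries were far below the rest (−2.02 ± 0.20, adjusted p = 1.3e-14), and cisplatin-resistant ones also lay below control (−0.53 ± 0.20, adjusted p = 0.031). The peak at chr6:27142632-27143632 had 19.9 and 21.8 CPM in control and 6.68 and 7.20 CPM in dual-resistant libraries (−1.52 ± 0.18, adjusted p = 1.5e-11). At the start of H2BC12, on the other hand, the dual-resistant libraries had 72.1 and 66.5 CPM against 74.9 and 80.6 CPM in control, which did not pass the test (−0.16 ± 0.08, adjusted p = 0.21).

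**Figure D4:**
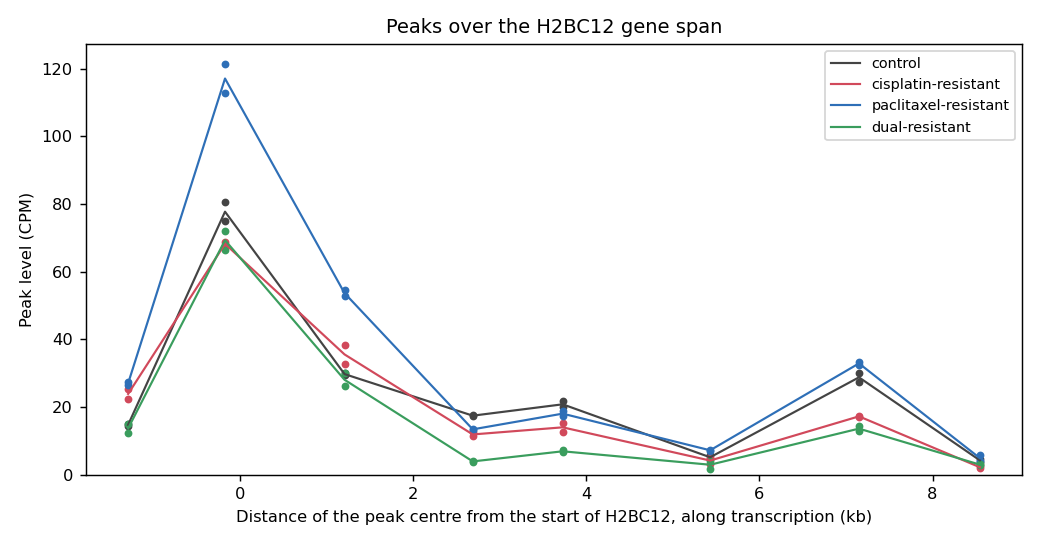
Level in CPM (axis from 0) of the 8 peaks over H2BC12 against the distance of each peak's centre from the gene's start in kb along transcription; points are libraries and lines join group means. Paclitaxel-resistant libraries are highest at the start, and dual-resistant libraries are lowest at the 3 peaks called lower, at 3.95 CPM against 17.5 CPM in control at the peak that fell most and 13.6 against 28.8 CPM at the H4C9 peak.

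The resistant groups were then compared with each other. Dual-resistant cells had 2 member peaks higher and 48 lower than cisplatin-resistant cells, where 21.9% and 19.9% of all tested peaks were higher and lower (34800 and 31534 peaks, and 24994 and 37275 under median-ratio scaling). The 2 higher ones were at H3C12 (1.62 ± 0.16) and H2BC6 (0.58 ± 0.12, adjusted p = 6.3e-05). Against paclitaxel-resistant cells, dual-resistant cells had 0 member peaks higher and 57 lower by limma, where 14.9% and 7.44% of all tested peaks were, and edgeR and DESeq2 also called 0 higher, as did an unadjusted p under 0.05. With the window's median subtracted this became 5 higher and 16 lower, and 3 of the 57 had the opposite sign. All tested peaks leaned the other way under median-ratio scaling, with 14243 higher and 19612 lower against 23681 and 11803 here. Among peaks of at least 20 CPM, 44 of 46 members were lower in the main fit, against 37.3% of all tested peaks. Paclitaxel-resistant cells had 41 member peaks higher (47.7%) and 14 lower than cisplatin-resistant cells, where 15.3% and 23.4% of all tested peaks were. Strong peaks were more often higher in general: 47.2% of all tested peaks of at least 20 CPM were higher and 9.82% lower. Of the 46 members at that level, 39 were higher and 1 lower. Of the 40 below it, 2 were higher and 13 lower (32.5%), against 13.1% and 24.4% of all tested peaks below 20 CPM. With quantile scaling the split of all 86 members was 30 and 18, when all tested peaks went from 24272 higher and 37211 lower to 32626 and 30916. With the window's median subtracted it was 4 and 46, and 28 of the 55 called peaks had the opposite sign. The 14 lower ones included all peaks of H2BC3 and H3C3, such as −4.16 at the start of H2BC3 (adjusted p = 1.2e-16) and −4.03 at the start of H3C3 (adjusted p = 2.3e-13), and those of H4C6 and H4C7.

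The difference between dual- and paclitaxel-resistant cells was compared with that between cisplatin-resistant and control cells, as a contrast of all 4 groups in the same fit. A value below 0 means that the cisplatin difference was less upward among the paclitaxel-resistant pair of groups. It was called below 0 at 72 of 86 member peaks and above 0 at none by limma, edgeR or DESeq2 or at an unadjusted p under 0.05, where 19.3% of all tested peaks were above and 15% below. Those shares are 30672 and 23753 peaks, which became 18598 and 32572 under median-ratio scaling, 17577 and 26924 by edgeR and 11316 and 21745 by DESeq2. The members' median was −1.17, against 0.22 for all tested peaks, −0.34 for the other window peaks and −0.66 for chromosome 6 outside the window. With the window's median subtracted, 59 remained called below 0. Since the comparisons with control share the control libraries, their calls are given side by side only. In both single-resistant groups 26 peaks were called higher with no call in dual-resistant cells (30.2% of members, 0.713% of all tested peaks). A further 3 were higher in both and lower in dual-resistant cells (3.49% and 0.0573%). With paclitaxel 22 were higher with no other call (25.6% and 3.34%), and 2 were higher with paclitaxel and lower in dual-resistant cells alone (2.33% and 0.130%). With cisplatin alone 14 were higher (16.3% and 14.99%), and 7 were called in no comparison (8.14% and 51.8%). The share with cisplatin alone was thus near that of all tested peaks.

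**Figure D5:**
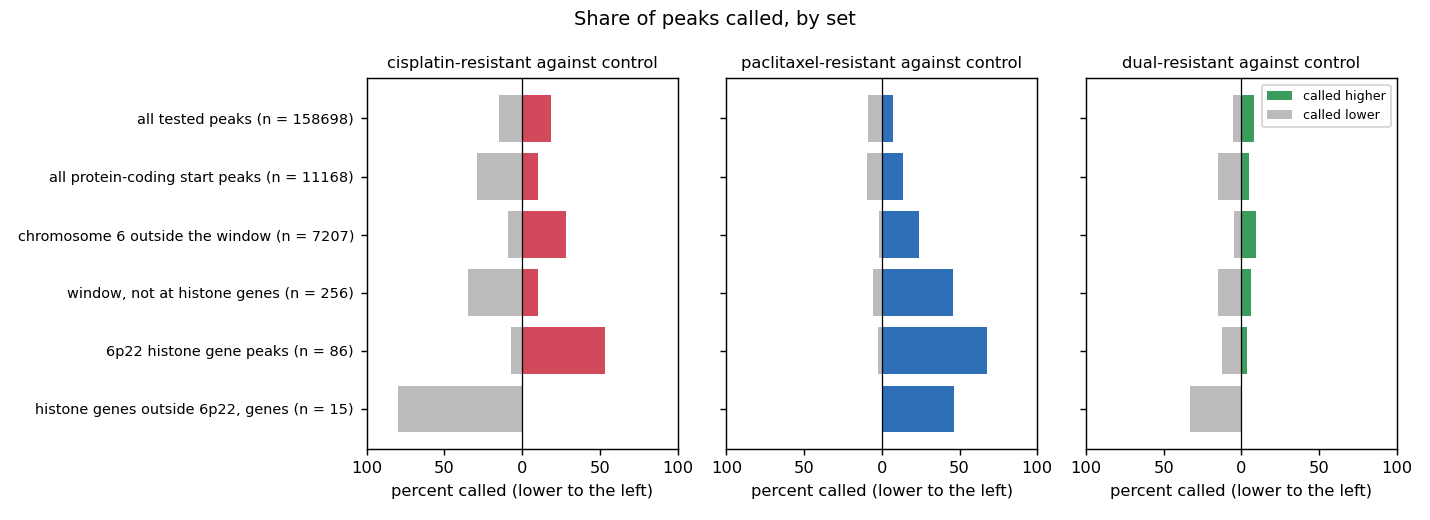
Percent of peaks called higher (coloured, to the right) and lower (grey, to the left) than control in each resistant group, for all tested peaks, peaks at protein-coding starts, chromosome 6 outside the window, window peaks away from histone genes, the 86 histone gene peaks, and the strongest peaks of 15 histone genes outside 6p22. In cisplatin-resistant cells 53.5% of 6p22 histone peaks were higher, whereas 80.0% of the genes outside 6p22 were lower.

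Histone genes elsewhere and related genes were read at their strongest peaks. As a background, 7.57% of the 5732 peaks of at least 20 CPM that hold a protein-coding start were higher and 32.9% lower with cisplatin resistance, 18.4% and 4.22% with paclitaxel and 2.55% and 18.5% with dual resistance. Of 15 replication-dependent genes outside 6p22 with a peak, 0 were called higher and 12 lower there (median −0.34), 7 higher and 0 lower in paclitaxel-resistant cells (median 0.29), and 0 higher and 5 lower in dual-resistant cells (median −0.09). DESeq2 called 7 lower with cisplatin, and edgeR and DESeq2 each called 13 higher with paclitaxel. The counts of 0 were also 0 by edgeR and DESeq2, and at an unadjusted p under 0.05 they were 0, 0 and 1. Several of these genes share a peak, as the members do. H3C14, an H3 gene of chromosome 1, had 124 CPM in control, 88.5 CPM in cisplatin-resistant, 131 CPM in paclitaxel-resistant and 94.6 CPM in dual-resistant cells (−0.48, adjusted p = 8.2e-08 for cisplatin). H2BC18 and H3C13, which share a peak, had 72.2, 73.6, 105 and 79.8 CPM in the same order (0.54, adjusted p = 1.3e-07 for paclitaxel). The difference between these genes and the 6p22 members was not tested, and the 2 sets were read out of 1 fit.

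Among 11 replacement histones and variants, which are made outside S phase, 1 was higher and 4 lower in cisplatin-resistant cells, 1 higher and 0 lower in paclitaxel-resistant cells, and 1 higher and 0 lower in dual-resistant cells. For the last, edgeR called 0 higher and 4 lower and DESeq2 0 and 1, and 4 were lower at an unadjusted p under 0.05, while the 0 with paclitaxel held by each of these. With cisplatin DESeq2 called 2 lower, and edgeR and DESeq2 each called 2 higher with cisplatin and 2 with paclitaxel resistance. The 2 genes for the replacement histone H3.3 parted in cisplatin-resistant cells: H3-3A fell from 44.4 to 23.0 CPM (−0.93, adjusted p = 2.3e-10) and H3-3B rose from 29.5 to 44.4 CPM (0.58, adjusted p = 6.1e-05). H2AX, the variant phosphorylated at DNA breaks, was lower there (68.4 and 51.8 CPM, −0.40, adjusted p = 0.0004), and H2AZ2, an H2A.Z gene, was higher with paclitaxel resistance (63.4 and 107 CPM, 0.75, adjusted p = 2.7e-11).

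Of 25 genes for factors of histone gene expression, 1 was higher and 9 lower in cisplatin-resistant cells, 5 higher and 2 lower in paclitaxel-resistant cells, and 0 higher (also by edgeR, DESeq2 and an unadjusted p under 0.05) and 8 lower in dual-resistant cells. The 36.0% lower with cisplatin and 20% higher with paclitaxel were near the shares of strong start peaks above, and the 32.0% lower with dual resistance stood beside 18.5% there. DESeq2 called 3 lower with cisplatin and 0 lower with paclitaxel, and edgeR 8 higher and 1 lower with paclitaxel. NPAT, the coactivator of histone transcription, shares a peak with ATM and had 115 CPM in control, 124 CPM in cisplatin-resistant, 136 CPM in paclitaxel-resistant and 105 CPM in dual-resistant cells (0.24, adjusted p = 0.011 for paclitaxel). CASP8AP2, a protein of the histone locus body encoded on chromosome 6, had 83.4, 83.5, 144 and 76.8 CPM (0.79, adjusted p = 3.6e-14 for paclitaxel). NFYA, the NF-Y subunit, also on chromosome 6, had 77.9, 56.6, 113 and 63.3 CPM, lower with cisplatin (−0.47, adjusted p = 1.4e-05) and higher with paclitaxel resistance (0.54, adjusted p = 9.6e-07). POU2F1, the octamer factor, was lower in cisplatin-resistant (56.8 CPM against 76.2, −0.42, adjusted p = 0.00012) and dual-resistant cells (59.3 CPM, −0.36, adjusted p = 0.0026). SLBP, which binds the histone stem-loop, was lower in dual-resistant cells (31.4 CPM against 45.5, −0.54, adjusted p = 0.00063).

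Of 17 histone chaperone genes, 1 was higher and 7 lower in cisplatin-resistant cells, 3 higher and 0 lower in paclitaxel-resistant cells, and 0 higher and 5 lower in dual-resistant cells. The 41.2% lower with cisplatin and 17.6% higher with paclitaxel stood beside 32.9% and 18.4% of strong start peaks. edgeR and DESeq2 each called 4 lower with cisplatin and 7 higher with paclitaxel, and edgeR called 10 lower with dual resistance. By both tools the counts of 0 were 0 too, and 1 and 0 at an unadjusted p under 0.05. HJURP, the chaperone of the centromeric histone CENPA, was lower with cisplatin resistance (27.8 and 14.7 CPM, −0.90, adjusted p = 2.2e-07), as was CHAF1B of the CAF-1 complex (19.02 and 11.4 CPM, −0.72, adjusted p = 0.00033). ASF1A, a chaperone of H3 and H4 encoded on chromosome 6, was higher with paclitaxel resistance (18.8 and 40.4 CPM, 1.08, adjusted p = 4.4e-10), and so was DAXX, an H3.3 chaperone on the same chromosome (53.4 and 87.8 CPM, 0.71, adjusted p = 4.0e-10).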

How the data were processed

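ATAC-seq was done on 8 libraries in 4 groups of 2. The deposited values are CPM over 159451 peaks of 1001 bp, per the file headers and the values, and they sum to the same total in every library, so a change shared by all peaks cannot be seen. Bowtie2, Picard, MACS2 and hg38 are named in the submitters' processing notes. Their versions and roles, the Tn5 shift, the merging of peaks and the handling of reads that map to several places, which matters for near-identical histone copies, are all details not given in the sources used here. Every column was matched to a library (0 unmatched).

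The CPM values gave whole reads for 100% of values (within 0.01 read). The test took peaks that reached 1 CPM in 2 or more libraries, as log2(CPM + 0.5), with limma 3.58.1 (R 4.3.3, variance trend, group as the only term, 4 residual and 98.5 prior degrees of freedom), with Benjamini-Hochberg adjustment over 158698 peaks and calls at 0.05. The procedure was tested on simulated data. Alternatives were edgeR 4.0.16 and DESeq2 1.42.0 on the recovered reads, other scalings, a pseudocount of 2, no filter, a replicate block, the window's median subtracted, gene spans without extension, and leaving out each library.

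Members, lists and the rule for naming were chosen with earlier results of these data known. Named in full were the highest and lowest gene of each family, up to 5 called genes per direction and comparison with control, H1-1 to H1-6, H2AC1 and H2BC1, and up to 4 called genes per other list. H2AW and H2BU1 were not analysed here, and H3-5 had no tested peak.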

Additional observations from a re-analysis of the deposited data

Results flagged for a closer look

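At the 6p22 genes listed here, the cisplatin difference was unlike in the 2 backgrounds: among cells with paclitaxel resistance (dual- minus paclitaxel-resistant) it was below that among cells without (cisplatin-resistant minus control), by a limma contrast over all 4 groups at an adjusted p under 0.05. The gap contains the cisplatin and the paclitaxel difference from control, each with its sign reversed. A wide gap at loci picked for either difference is thus no further result. H3C12, H3C1, H4C1, H1-2 and H4C3 were among those picked for a paclitaxel rise. At H1-2 that rise was 1.27, while the cisplatin difference of 0.16 was not called. In log2 units it was −3.67 at H3C3, −2.95 at H2BC3, −2.77 at H4C6 and −2.59 at H4C7, loci opened in cisplatin-resistant cells. The difference of dual- from paclitaxel-resistant cells at these 4 was −0.25, 0.45, −0.70 and −1.07, and only that of H4C7 was called. The gap was −2.50 at H3C12 and −1.68 at the H2AC16 and H1-5 peak. At genes already open in control cells it was −1.58 at H4C3, −1.46 at H3C1 and H4C1, −1.39 at H1-2, −1.35 at H3C2, −1.24 at H3C6, −1.17 at H1-4, −0.85 at H2BC11 and H2AC11, −0.74 at H4C8, −0.54 at H1-3 and −0.52 at H4C9. The H4C9 gap (adjusted p = 0.04) lost its call without any 1 of 6 libraries and with the window's median subtracted (−0.18). H2BC6, with −0.21 ± 0.17, did not pass the test. Of the 15 replication-dependent genes outside 6p22, 2 were called below 0 by limma and 9 by edgeR and by DESeq2.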

How the results depend on the processing

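Counts of called histone gene peaks moved most when the median difference of the window's other peaks was subtracted: 16 higher and 10 lower for paclitaxel-resistant against control, 2 lower for cisplatin-resistant, 7 higher for dual-resistant, 5 higher and 16 lower for dual- against paclitaxel-resistant, and 4 higher and 46 lower for paclitaxel- against cisplatin-resistant. Median-ratio scaling gave 3 lower with cisplatin and 17 lower with dual resistance, quantile scaling 8 higher with dual resistance, edgeR 18 lower with dual resistance, and DESeq2 2 lower with cisplatin. Gene spans without extension (58 peaks) gave 30 higher with cisplatin and 1 lower with paclitaxel, as fewer peaks were counted. Median-ratio scaling moved the median of all peaks from −0.14 to −0.00 for paclitaxel, from 0.23 to 0.02 for dual- against paclitaxel-resistant and from 0.22 to −0.09 for the 4-group contrast.

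Leaving out 1 library gave 36 to 46 higher and 2 to 6 lower for cisplatin (2 without cisplatin-resistant library 1, 4 without library 2, 3 without either control library), 50 to 58 and 2 to 2 for paclitaxel, 3 to 3 and 9 to 11 for dual, 2 to 2 and 42 to 48 for dual against cisplatin, 0 to 0 and 53 to 57 for dual against paclitaxel, 36 to 41 and 10 to 15 for paclitaxel against cisplatin, and 0 to 0 and 65 to 69 for the 4-group contrast; a lone library was then assumed to vary like the other groups. Subtracting the window's median also gave the opposite sign at 28 of 55 called member peaks for paclitaxel against cisplatin, 6 of 60 for paclitaxel and 3 of 57 for dual against paclitaxel. Of the values of genes named in the text, those that changed sign were the paclitaxel differences of H4C8 (−0.11), H4C9 (−0.39) and H3C6 (−0.17) after the window's median was subtracted, and, outside 6p22, the 4-group contrast of H3C14 (−0.34 with median-ratio scaling, −0.32 with edgeR, −0.35 with DESeq2) and of H2BC26 and H2AC25 (−0.33 with median-ratio scaling); the cause was not tested.

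The labels number the libraries 1 and 2 in each group but do not say that a number marks a shared culture or day, and deviations of same-numbered libraries correlated at −0.0006 to 0.0033 across peaks. With the replicate number as a block, 46 and 6 peaks were higher and lower with cisplatin, 58 and 2 with paclitaxel and 3 and 11 with dual resistance. edgeR on the whole reads called 48196, 25272 and 21803 peaks in all for the 3 comparisons with control, against 52757, 26082 and 21425 by limma and 36508, 18162 and 13856 by DESeq2. Their direction differed: edgeR gave 15479 higher and 9793 lower with paclitaxel (limma 11525 and 14557), 10118 and 11685 with dual resistance (limma 12864 and 8561), and 13269 and 20170 for dual against paclitaxel (limma 23681 and 11803). Depth limits the lowest peaks, where 3 reads are 0.322 to 0.390 CPM.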
